A study of Mus musculus with 18 samples.

Results

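The 49 genes described here encode the outer parts of the nuclear pore complex, the receptors that carry cargo through it, the Ran cycle and the main mRNA export pair. They were chosen by name from a list of known genes, and all 49 were among the 24602 gene rows of the count table. Nuclear pores are built from nucleoporins: a Y-shaped scaffold unit on both faces, a basket on the nuclear side, filaments on the cytoplasmic side and anchors in the pore membrane. Importins and exportins bind their cargo on one side and release it on the other, and the direction is set by the small GTPase Ran, which is loaded with GTP in the nucleus and hydrolyses it in the cytoplasm. Bulk mRNA leaves through another pair of proteins, Nxf1 and Nxt1.

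Gene-level counts came from RNA-seq of mice of strain 129S1/SvlmJ that carry R388W, a knock-in point variant of Nup93, which encodes an inner pore nucleoporin. There were 18 libraries in 6 groups of 3, from 2 RNA fractions and 3 genotypes. The groups were Nuclear_Hom (R388W on both alleles, nuclear RNA), Nuclear_Het (R388W on 1 allele, nuclear RNA), Nuclear_WT (wild type, nuclear RNA), Total_Hom (R388W on both alleles, total RNA), Total_Het (R388W on 1 allele, total RNA) and Total_WT (wild type, total RNA). Age, sex and any treatment were not given in the labels, and the variant is present in every cell of a knock-in animal. Whether the 3 libraries of a group are from different animals is not stated, and the p-values therefore cover the spread among libraries only, which could be technical.

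Several facts of the libraries bear on every result below. Depth was 17405493 to 23462056 counts, once the column of Total_WT replicate 1, which held 200140709 counts, had the sum of the 9 nuclear columns taken from it. The series text names podocytes, of WT and Hom mice only, while the sample labels give mouse tissue and add Het, and transcripts of the proximal tubule were far more abundant than those of podocytes. The 7 proximal tubule markers summed to 26730 to 50540 CPM (a gene's counts relative to its TMM-adjusted library size), and the 8 podocyte markers to 255 to 471 CPM. Most of the spread of the proximal tubule sum came from Kap, an androgen-regulated kidney transcript, which averaged 14590 CPM in Nuclear_WT and 22940 CPM in Total_Het, and between 1605 and 5388 CPM in the other 4 groups. Rn45s took 7.12% of the counts of Total_Hom replicate 2 and 0.11 to 1.02% elsewhere. Without Kap the other 6 proximal tubule markers averaged 26200, 25610 and 29340 CPM in Nuclear_Hom, Nuclear_Het and Nuclear_WT, and 25270, 26970 and 23770 CPM in Total_Hom, Total_Het and Total_WT. Immune markers (7 genes) summed to 1455 to 1538 CPM in Nuclear_Het and to 497 to 948 CPM in the other libraries. Hbb-b1 had a count of 0 in all 18 libraries, Ren1 in 17 and Hba-a1 in 15, and no other marker of these cell types was at 0 in any library. Alas2, another erythroid marker, stood at 15.0 to 115 CPM. Whether the transcripts at 0 were absent or their reads were left uncounted was not tested.

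Xist and the Y-linked genes did not follow genotype. Xist averaged 504 CPM in Nuclear_Hom, 514 CPM in Nuclear_Het and 345 CPM in Total_WT, and at most 1.251 CPM in Nuclear_WT, Total_Hom and Total_Het. The sum of 4 Y-linked genes was the mirror image, with 155 to 163 CPM in Nuclear_WT, Total_Hom and Total_Het and at most 2.58 CPM elsewhere. Hom and WT, and Het and WT, therefore differed in Xist status in both fractions and in opposite senses, so genotype and sex cannot be told apart there. Hom against Het, in either fraction, compared libraries alike in Xist status. Malat1 and Neat1, which stay in the nucleus, summed to 2287 to 3194 CPM in the nuclear libraries and to 2516 to 3057 CPM in the total libraries, so the nuclear libraries did not stand above the total ones in these RNAs. In bulk RNA, fewer cells of a type and less RNA per cell cannot be told apart.

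All 49 transcripts were detected in every library, with a lowest count of 42, for Nutf2 in 1 library. Levels per kilobase of gene length were led by Sec13, a Y complex protein that also coats vesicles leaving the endoplasmic reticulum, at 63.7 ± 5.04 CPM per kb (mean and SD over the 18 libraries). Ran followed at 58.1 ± 5.77 CPM per kb, then Ranbp1, a Ran-binding protein, at 53.9 ± 2.83 CPM per kb. Kpnb1, the importin beta that carries most classical cargo, stood at 30.9 ± 1.42 CPM per kb, and Ipo7, an import receptor for ribosomal proteins and other cargo, at 28.5 ± 3.34 CPM per kb. The lowest levels were those of Nutf2, the carrier that returns Ran to the nucleus, at 1.94 ± 0.374 CPM per kb and of the exportin Xpo4 at 2.72 ± 0.498 CPM per kb. Nup160, Nup210 and Nup107 lay just above these, with 2.79 CPM per kb for Nup160, 3.58 for Nup210 and 3.66 for Nup107. Within a group the libraries were close, with a median coefficient of variation over the 49 genes of 3.82% in Nuclear_Hom, 2.79% in Nuclear_Het, 3.30% in Nuclear_WT, 4.10% in Total_Hom, 3.08% in Total_Het and 3.03% in Total_WT.

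**Figure D1:**
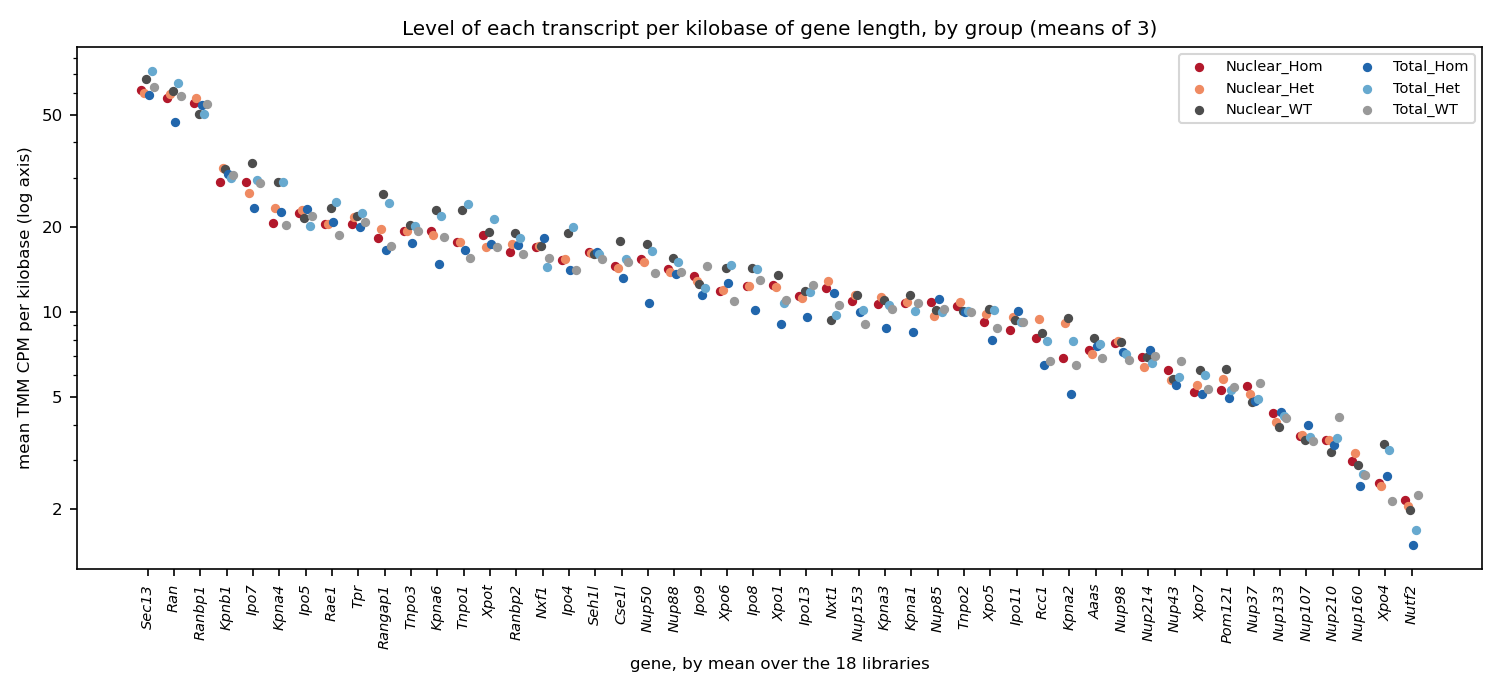
Mean TMM-scaled CPM per kilobase of gene length (log axis) of each of the 49 transcripts in the 6 groups; each point is the mean of 3 libraries, and genes are ordered by their mean over the 18 libraries. Sec13, Ran and Ranbp1 lie above all other genes in every group, and Nutf2 lies lowest in all but Total_WT, where Xpo4 is lower.

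The 6 group means of a gene lay close together. The highest group mean over the lowest was 1.28 at the median of the 49 genes, and ran between 1.06 and 1.86, against a median of 1.38 for the 11526 genes of at least 5 CPM. The lowest group was Total_Hom for 26 of the 49 genes (53.1%), against 24.7% of the 15410 genes tested over all libraries. Nuclear_WT was the highest group for 19 (38.8%), against 18.1% of those genes, and Nuclear_Hom was the highest for 0, against 9.86%. Total_WT was the lowest for 11 (22.4%), against 13.3%. These ranks are of TMM-scaled CPM and were not counted under another scaling.

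**Figure D2:**
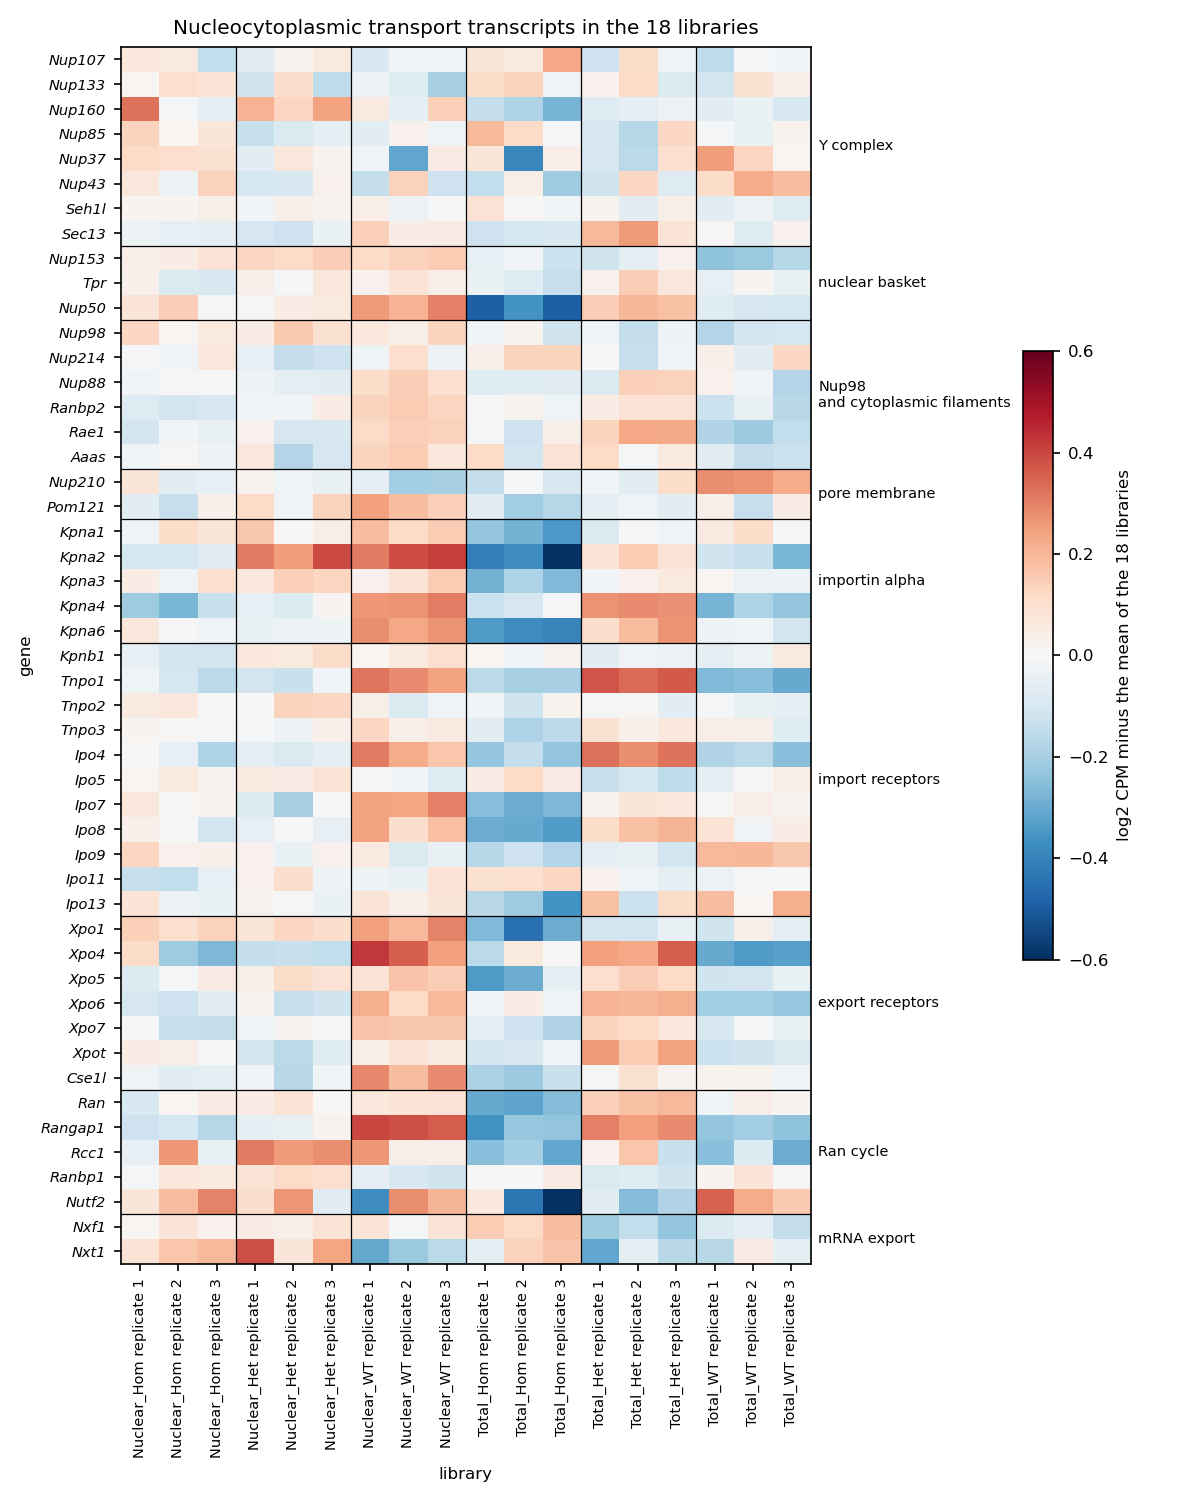
Level of each of the 49 transcripts (rows, grouped by role) in each of the 18 libraries (columns), as log2 CPM minus the mean of that gene over the 18 libraries. Red is above and blue below the mean; Tnpo1, Rangap1, Kpna4 and Xpo4 are red in all 3 Nuclear_WT and all 3 Total_Het libraries, and Kpna1, Kpna2, Kpna3 and Kpna6 are blue in Total_Hom.

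Of the 49 genes, 27 passed edgeR's quasi-likelihood test in nuclear Hom against WT (adjusted p under 0.05 over all genes), 4 higher and 23 lower in Hom. Over all genes tested 54.3% passed, 26.5% higher and 27.8% lower, so the genes passed about as often as any gene but mostly downward. Their median log2 fold change was -0.09, beside 0.02 for all genes. In nuclear Het against WT 25 passed, 6 higher and 19 lower, against 64.6% of all genes (32.8% higher and 31.7% lower), with a median of -0.06 beside 0.02. Nuclear Hom against Het gave 14 calls, 4 higher and 10 lower, against 43.2% of all genes (21.4% higher and 21.8% lower), with a median of -0.01 beside -0.001. That count was 8 with DESeq2, and 9 without Nuclear_Hom replicate 3 or without Nuclear_Het replicate 3.

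Total RNA gave 30 calls in Hom against WT, 11 higher and 19 lower, where 61.6% of all genes passed (30.6% higher and 31% lower), and a median log2 fold change of -0.04 beside -0.001. Total Het against WT gave 27 calls, 21 higher and 6 lower, where 61.1% of all genes passed (30.9% higher and 30.3% lower), and a median of 0.05 beside -0.01. Total Hom against Het gave the most, 35 calls with 7 higher and 28 lower, where 67% of all genes passed (32.9% higher and 34.1% lower), and a median of -0.19 beside 0.01. Ranbp2 and Kpna4 passed in all 6 comparisons, and Nup107, Nup160, Nup37, Seh1l and Aaas in none (0) of them. Comparisons within a fraction share libraries, so their counts are not independent.

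These splits depended on the scaling. Library totals alone in place of TMM gave 15 higher and 13 lower in nuclear Hom against WT, where 44.1% of all genes were higher and 15.6% lower. Nuclear Het against WT had 24 higher and 8 lower (53.7% and 17% of all genes), and nuclear Hom against Het 0 and 18 (14.9% and 29.6%). In total RNA the counts were 5 higher and 19 lower for Hom against WT (25.9% and 31.4% of all genes), 8 and 24 for Het against WT (15.9% and 49.1%), and 14 and 14 for Hom against Het (45.9% and 21.2%). That scaling moved the median log2 fold change of all genes by 0.12, 0.18, -0.05, -0.03, -0.18 and 0.15 in these 6 comparisons, in the order given. Called genes that turned their direction under it were Sec13, Tpr, Nup88, Xpo1 and Ran in nuclear Hom against WT, and Sec13, Nup214, Nup88, Ranbp2, Rae1, Xpo1, Xpo7 and Xpot in nuclear Het against WT. In total RNA they were Nup153, Tpr, Nup88, Ipo8, Xpo7 and Ran in Het against WT and Nup88, Ranbp2 and Ipo9 in Hom against Het, while 0 turned in the other 2 comparisons. RLE size factors, DESeq2 and removal of the ribosomal precursor Rn45s turned the direction of 0 called genes.

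Tnpo1, Kpna4, Rangap1 and Ipo4 moved together across the groups, and Nup210 and Nxt1 did not. Their RefSeq promoters (GRCm38.p6, not the mm9 build named for the counts) are printed here for that contrast, as the 250 bases before the annotated start, read 5′ to 3′ on the strand of the gene. Capitals mark letters that match any of 7 motifs searched on both strands: the GC box, which reads GGGCGG, the CCAAT box, the E box, which reads CACGTG, the heat shock element core GAANNTTC, the cAMP response element TGACGTCA, the ETS site CCGGAAG and the NRF1 site, a palindrome named here without its letters. Matches may overlap one another, as the GC boxes of Tnpo1 do. The windows are chr13:98926385-98926634 for Tnpo1, chr3:69127093-69127342 for Kpna4, chr15:81729920-81730169 for Rangap1, chr14:55635685-55635934 for Ipo4 and chr6:91116827-91117076 for Nup210, all on the minus strand, and chr2:148672365-148672614 on the plus strand for Nxt1.
Tnpo1: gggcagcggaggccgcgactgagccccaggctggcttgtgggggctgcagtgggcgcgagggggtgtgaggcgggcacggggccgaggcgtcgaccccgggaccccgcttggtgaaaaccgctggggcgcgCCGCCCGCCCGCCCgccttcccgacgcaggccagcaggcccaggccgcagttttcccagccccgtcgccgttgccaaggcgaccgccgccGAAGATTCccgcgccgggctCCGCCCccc
Kpna4: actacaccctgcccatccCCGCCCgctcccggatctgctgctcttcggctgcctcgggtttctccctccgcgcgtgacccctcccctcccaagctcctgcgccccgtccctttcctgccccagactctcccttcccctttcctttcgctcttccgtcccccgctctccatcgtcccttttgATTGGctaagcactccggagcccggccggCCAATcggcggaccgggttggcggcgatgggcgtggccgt
Rangap1: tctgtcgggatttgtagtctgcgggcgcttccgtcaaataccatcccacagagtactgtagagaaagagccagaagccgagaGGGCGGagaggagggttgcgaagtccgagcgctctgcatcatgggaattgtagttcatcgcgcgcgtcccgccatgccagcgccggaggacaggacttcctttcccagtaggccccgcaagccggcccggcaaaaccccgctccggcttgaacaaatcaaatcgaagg
Ipo4: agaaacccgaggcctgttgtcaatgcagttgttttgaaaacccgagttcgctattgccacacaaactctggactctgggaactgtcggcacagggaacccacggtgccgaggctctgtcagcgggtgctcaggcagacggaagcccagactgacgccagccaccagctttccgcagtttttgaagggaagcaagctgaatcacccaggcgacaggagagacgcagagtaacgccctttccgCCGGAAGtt
Nup210: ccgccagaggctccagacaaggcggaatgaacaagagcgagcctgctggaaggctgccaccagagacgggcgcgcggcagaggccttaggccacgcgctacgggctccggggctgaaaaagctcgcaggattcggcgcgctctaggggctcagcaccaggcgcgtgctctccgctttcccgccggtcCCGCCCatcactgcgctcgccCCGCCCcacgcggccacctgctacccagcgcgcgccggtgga
Nxt1: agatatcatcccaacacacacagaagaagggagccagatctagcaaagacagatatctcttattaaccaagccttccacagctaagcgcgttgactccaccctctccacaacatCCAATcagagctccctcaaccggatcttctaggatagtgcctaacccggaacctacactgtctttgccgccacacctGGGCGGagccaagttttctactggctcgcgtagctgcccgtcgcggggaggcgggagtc
No motif was held by all 4 of the genes that moved together: Tnpo1, Kpna4 and Rangap1 hold GGGCGG, Ipo4 holds CCGGAAG, and GGGCGG is also in the Nup210 and Nxt1 windows.

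RefSeq promoters were matched for 40 of the 49 genes and 27025 genes in all. The median GC content of the 40 was 64%, against 52% of all. GGGCGG was in 26 of the 40 (65% against 32.9% of all promoters) and CCAAT in 16 (40% against 34.5%). The ETS site CCGGAAG was in 6 (15% against 7.05%), CACGTG in 5 (12.5% against 6.05%), the NRF1 site in 4 (10% against 0.781%), GAANNTTC in 3 (7.5% against 6.78%) and TGACGTCA in 2 (5% against 1.62%). These are matches of letters only, and a GC-rich window holds GC-rich motifs more often.

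The Y complex, a scaffold ring of the pore, was represented by 8 transcripts, with summed levels close to each other in the 6 groups. These 8 transcripts together averaged 240 ± 3.67 CPM (SD, n = 3) in Nuclear_Hom, 233 ± 4.25 in Nuclear_Het and 240 ± 4.94 in Nuclear_WT, and 234 ± 4.97 in Total_Hom, 247 ± 3.32 in Total_Het and 235 ± 1.70 in Total_WT. Ahctf1, counted with the other pore genes and not in this sum, was lower in nuclear Hom than in WT (log2 -0.29 ± 0.04, adjusted p = 1.23e-10 by edgeR). In total Hom against WT Ahctf1 did not pass (log2 0.03 ± 0.04). In nuclear Hom against WT 1 of the 8 was higher and 1 lower, and the median log2 fold change was 0.08. Total Hom against WT gave 0 higher and 2 lower. With library totals alone 5 of the 8 were higher in nuclear Hom, and Sec13 turned its direction there and in nuclear Het.

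Sec13 carried most calls of these 8 transcripts. It stood at 81.0, 79.8 and 79.5 CPM in Nuclear_Hom, 77.0, 75.8 and 80.3 CPM in Nuclear_Het and 91.1, 85.1 and 85.3 CPM in Nuclear_WT. Total_Hom had 75.9, 76.9 and 77.4 CPM, Total_Het 94.6, 98.5 and 87.2 CPM and Total_WT 83.1, 78.5 and 84.1 CPM. Every Nuclear_WT and Total_Het library was above every other library, and Total_Hom lay below Total_WT. Nup133, a stem protein of the Y, had 24.7, 26.3 and 25.9 CPM in Nuclear_Hom and 24.0, 23.3 and 21.3 CPM in Nuclear_WT, without overlap. It was higher in nuclear Hom than in WT (log2 0.17 ± 0.06 SE, adjusted p = 0.0224 by edgeR), a call lost with DESeq2, without Nuclear_WT replicate 3 (0.12) and without Nuclear_Hom replicate 2 (0.15).

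Nup85, which joins the short arm of the Y, had 24.5, 22.5 and 23.54 CPM in Nuclear_Hom and 20.4, 21.1 and 21.5 CPM in Nuclear_Het, again without overlap. It was higher in nuclear Hom than in Het (log2 0.16 ± 0.06 SE, adjusted p = 0.0342 by edgeR), a call lost under 7 of the settings tried, among them DESeq2 (0.17), library totals alone (0.11) and leaving out either of 2 Nuclear_Hom libraries. Nup37 and Nup43 were measured at only 5.32 to 8.98 CPM over all libraries. Nup107, Nup160 and Seh1l passed in none (0) of the 6 comparisons of genotypes.

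Of the basket proteins, Nup50, a mobile nucleoporin that binds importin alpha and helps release its cargo, varied most. It stood at 73.4, 77.1 and 69.1 CPM in Nuclear_Hom, 69.9, 71.7 and 72.6 CPM in Nuclear_Het and 83.0, 80.4 and 85.9 CPM in Nuclear_WT. In total RNA it stood at 49.6, 54.3 and 49.6 CPM in Total_Hom, 77.1, 79.9 and 78.7 CPM in Total_Het and 66.2, 64.8 and 64.7 CPM in Total_WT. The 3 Total_Hom libraries were the lowest of all 18 and did not overlap with any other group. Nup50 was lower in total Hom than in WT (log2 -0.35 ± 0.04 SE, adjusted p = 1.87e-14 by edgeR) and than in Het (log2 -0.62 ± 0.04, adjusted p = 8.18e-32 by edgeR).

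Tpr, the coiled coil that forms the basket itself, was lower in nuclear Hom than in WT and Het, lower in total Hom than in Het and higher in total Het than in WT, but its means lay within 152 to 170 CPM and its direction in nuclear Hom and in total Het against WT turned with library totals alone. Nup153, which anchors the basket to the pore, was higher in total Hom and total Het than in WT, with 60.4 ± 2.43 CPM in Total_Hom, 61.2 ± 3.07 CPM in Total_Het and 54.6 ± 1.35 CPM in Total_WT (SD, n = 3), and turned its direction in total Het with library totals alone. In nuclear RNA it averaged 65.8 ± 1.17 CPM in Nuclear_Hom and 69.4 ± 0.943 CPM in Nuclear_WT and did not pass.

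Nup98, an FG nucleoporin of both faces, and the filament proteins Nup214, Nup88 and Ranbp2, with Rae1, an mRNA export factor bound to Nup98, and Aaas, summed to 368 ± 3.51 CPM in Nuclear_Hom, 374 ± 2.52 CPM in Nuclear_Het and 406 ± 4.29 CPM in Nuclear_WT. In total RNA the 6 summed to 376 ± 2.79 CPM in Total_Hom, 389 ± 6.94 CPM in Total_Het and 353 ± 3.89 CPM in Total_WT (SD, n = 3). Of these 6, 3 were lower and 0 higher in nuclear Hom than in WT, while 3 were higher and 0 lower in total Hom than in WT. Of all genes 27.8% were lower and 26.5% higher in the former, and 31% lower and 30.6% higher in the latter. Under library totals alone nuclear Hom gave 2 higher and 1 lower and total Hom 0 and 0. Of all genes 44.1% were then higher and 15.6% lower in nuclear Hom, and 25.9% higher and 31.4% lower in total Hom.

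Ranbp2, the large filament protein that binds Ran and modifies its partners with SUMO, had 157, 152 and 154 CPM in Nuclear_Hom, 163, 163 and 170 CPM in Nuclear_Het and 181, 183 and 181 CPM in Nuclear_WT. Total_Hom had 164, 167 and 162 CPM, Total_Het 170, 176 and 176 CPM and Total_WT 151, 160 and 147 CPM. Both mutant groups lay below WT in nuclear RNA and above it in total RNA, with no overlap in either fraction, but with library totals alone its direction turned in nuclear Het against WT and in total Hom against Het. The calls in total RNA against WT were lost with that scaling, for Hom (log2 0.08, adjusted p = 0.0852 by edgeR) and for Het (log2 0.01, adjusted p = 0.875 by edgeR). Rae1 had 37.0, 34.1 and 38.0 CPM in Total_Hom and 32.9, 32.0 and 33.7 CPM in Total_WT. It was higher in total Hom than in WT (log2 0.15 ± 0.05 SE, adjusted p = 0.00962 by edgeR), a call lost with library totals alone (0.12) and without Total_Hom replicate 3 (0.12). Nup214 had 56.0, 55.6 and 59.0 CPM in Nuclear_Hom and 54.3, 51.0 and 51.7 CPM in Nuclear_Het. It was higher in Hom than in Het in nuclear RNA (log2 0.11 ± 0.04 SE, adjusted p = 0.0335 by edgeR) and in total RNA (log2 0.15 ± 0.04, adjusted p = 0.00110 by edgeR). The nuclear call was lost with DESeq2 and with 5 other settings, but the total call with none (0).

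Among the genes described here, the pore membrane transcripts Nup210 and Pom121 were both lower in total Hom than in WT. The Pom121 libraries overlapped there, with 26.6 to 29.4 CPM in Total_Hom and 27.9 to 31.6 CPM in Total_WT. Of the membrane genes counted with the other pore genes, Ndc1 did not pass there (log2 -0.19 ± 0.10 SE, adjusted p = 0.0962 by edgeR). Tmem33 (log2 -0.39 ± 0.03) and Nup210l (log2 -1.07 ± 0.46) were lower. Nup210, the large glycoprotein of the membrane ring, had 22.7, 24.9 and 23.53 CPM in Total_Hom, 24.8, 24.0 and 27.1 CPM in Total_Het and 30.5, 30.2 and 29.3 CPM in Total_WT. Nuclear_Hom had 26.4, 24.0 and 24.2 CPM, Nuclear_Het 25.5, 24.7 and 24.3 CPM and Nuclear_WT 24.1, 21.8 and 21.8 CPM. Total_WT was above every other library. Nup210 was lower in total Het than in WT (log2 -0.25 ± 0.06 SE, adjusted p = 1.93e-04 by edgeR) but higher in nuclear Het than in WT (log2 0.15 ± 0.06, adjusted p = 0.0377 by edgeR), and the nuclear call was lost with DESeq2 and without either of 2 Nuclear_WT or 2 Nuclear_Het libraries. Pom121 averaged 29.5 ± 1.73 CPM in Nuclear_Hom and 35.1 ± 1.24 CPM in Nuclear_WT, where it was lower in Hom. Of its exon bases 11.9% overlap Nsun5 on the opposite strand in GENCODE M21, and whether reads were counted by strand is not given.

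Importin alpha proteins recognise the classical nuclear localisation signal and hand cargo to importin beta. The 5 measured transcripts summed to 290 ± 4.82 CPM in Nuclear_Hom, 304 ± 4.53 CPM in Nuclear_Het and 352 ± 5.18 CPM in Nuclear_WT, and to 251 ± 1.12 CPM in Total_Hom, 334 ± 9.65 CPM in Total_Het and 281 ± 6.68 CPM in Total_WT (SD, n = 3). In total Hom against Het all 5 were lower, with a median log2 fold change of -0.35, and 3 of the 5 were still called lower with library totals alone. Of all genes 34.1% were lower there, and 21.2% with library totals alone. In nuclear Hom against WT 3 of 5 were lower and 0 higher, in both scalings, where 27.8% and 15.6% of all genes were lower. In total Hom against WT 4 of 5 were lower and 1 higher, in both scalings, where 31% and 31.4% of all genes were lower.

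Kpna2, the importin alpha most abundant in dividing cells, was among the most changed of the 49 genes. It stood at 13.9, 13.9 and 14.3 CPM in Nuclear_Hom, 18.6, 17.8 and 19.7 CPM in Nuclear_Het and 18.6, 19.6 and 19.96 CPM in Nuclear_WT. Total_Hom had 11.2, 11.5 and 8.60 CPM, Total_Het 15.8, 16.7 and 15.9 CPM and Total_WT 13.8, 13.7 and 12.4 CPM. The Hom libraries were the lowest of their fraction in both fractions, without overlap.

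Kpna2 was lower in nuclear Hom than in WT (log2 -0.46 ± 0.07 SE, adjusted p = 8.35e-08 by edgeR) and than in Het (log2 -0.42 ± 0.07, adjusted p = 1.04e-06 by edgeR). It was also lower in total Hom than in WT (log2 -0.34 ± 0.09, adjusted p = 4.82e-04 by edgeR) and than in Het (log2 -0.62 ± 0.09, adjusted p = 3.80e-10 by edgeR). In no alternative did these 4 calls lose significance. The 4 proliferation markers Mki67, Top2a, Ccnb1 and Cdk1 summed to 5.0 to 5.34 CPM in Nuclear_Hom, 11.6 to 15.3 CPM in Nuclear_Het and 6.28 to 6.61 CPM in Nuclear_WT, and to 5.03 to 6.98 CPM in Total_Hom, 4.92 to 5.27 CPM in Total_Het and 7.30 to 9.23 CPM in Total_WT. Their part in the Kpna2 result was not tested.

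Kpna4 had 76.8, 73.7 and 81.4 CPM in Nuclear_Hom, 86.3, 84.3 and 90.3 CPM in Nuclear_Het and 107, 108 and 110 CPM in Nuclear_WT. In total RNA it had 81.5, 83.2 and 88.8 CPM in Total_Hom, 107, 109 and 108 CPM in Total_Het and 73.4, 78.4 and 75.9 CPM in Total_WT. In nuclear RNA the order was Hom, Het, WT with no overlap, while in total RNA WT was lowest and Het highest.

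The fold changes of Kpna4 were therefore opposite between fractions. It was lower in nuclear Hom than in WT (log2 -0.48 ± 0.04 SE, adjusted p = 2.72e-20 by edgeR) and higher in total Hom than in WT (log2 0.16 ± 0.03, adjusted p = 3.01e-05 by edgeR). Against Het it was lower in Hom in nuclear RNA (log2 -0.18 ± 0.04, adjusted p = 6.35e-05 by edgeR) and in total RNA (mean 84.5 ± 3.81 CPM in Total_Hom and 108 ± 0.642 CPM in Total_Het, SD, n = 3). Kpna6 was lower in total Hom than in Het (log2 -0.56 ± 0.03, adjusted p = 3.04e-33 by edgeR), with 86.6, 84.2 and 83.0 CPM in Total_Hom against 118, 125 and 132 CPM in Total_Het. Kpna1 and Kpna3 were lower in total Hom than in both other total groups and passed in none (0) of the nuclear comparisons.

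**Figure D3:**
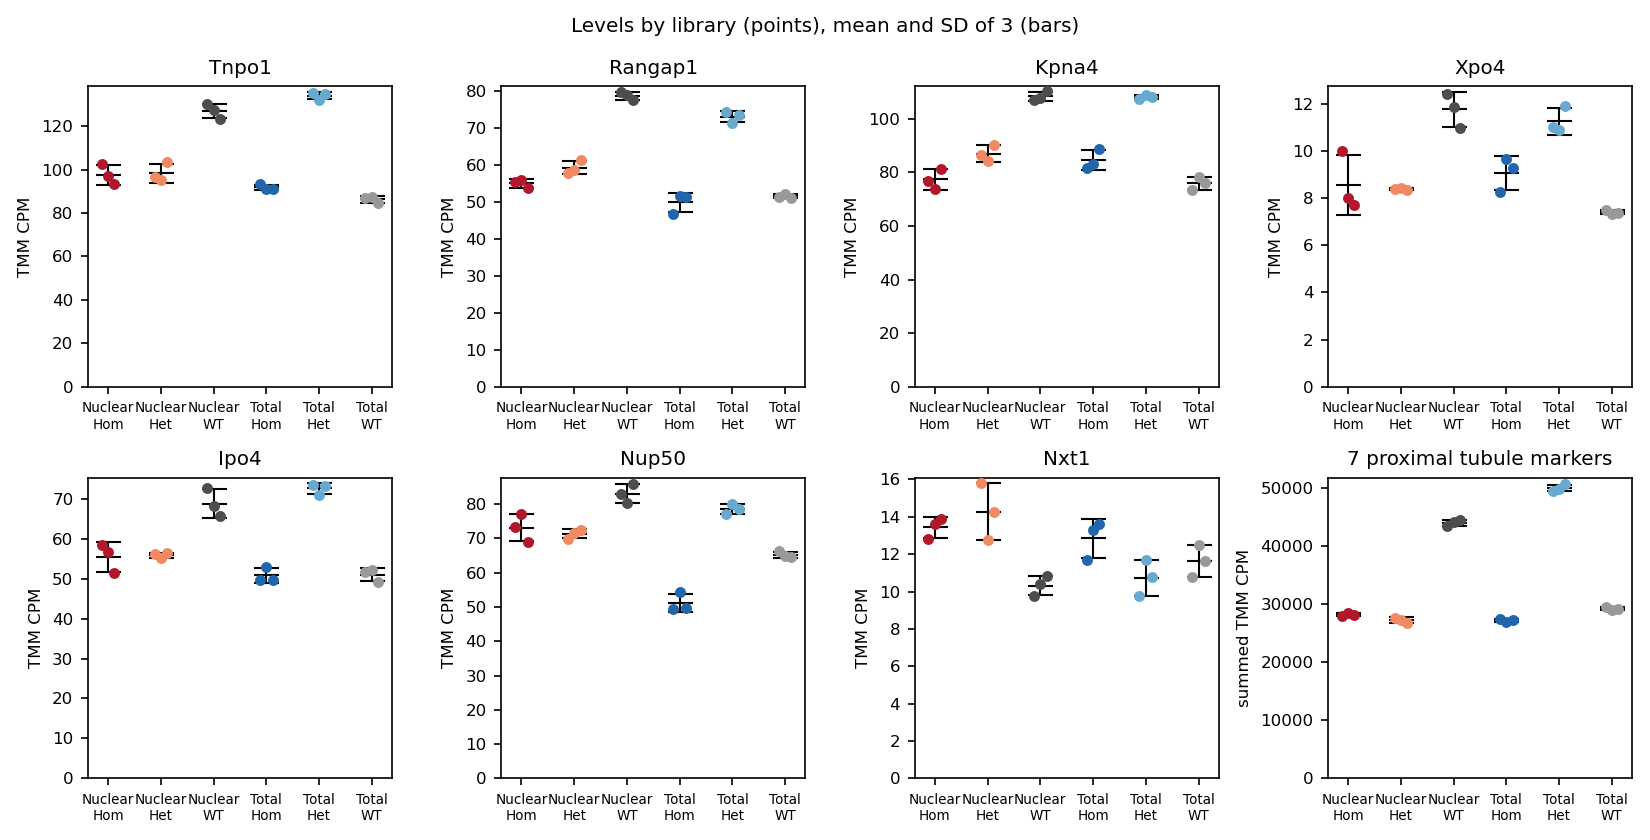
TMM-scaled CPM of 7 transcripts and the summed CPM of 7 proximal tubule markers in each library (points), with the mean and SD of the 3 libraries of a group (bars); all axes start at 0. Tnpo1, Rangap1, Kpna4, Xpo4 and Ipo4 are highest in Nuclear_WT and Total_Het, the same 2 groups in which the proximal tubule sum is at least 43370 CPM, while Nxt1 is lowest in Nuclear_WT.

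Among the 11 import receptors of the importin beta family, 5 were lower and 1 higher in nuclear Hom than in WT, and 5 were lower and 3 higher in total Hom than in WT. Total Hom against Het gave 7 lower and 2 higher, with a median log2 fold change of -0.20. Of all genes 27.8%, 31% and 34.1% were lower in these 3 comparisons, and 26.5%, 30.6% and 32.9% higher. Scaling by library totals alone turned the counts of the 11 into 3 lower and 3 higher, 5 lower and 0 higher, and 5 lower and 4 higher. Of all genes 15.6%, 31.4% and 21.2% were then lower, and 44.1%, 25.9% and 45.9% higher. Kpnb1 itself was lower in nuclear Hom than in Het (log2 -0.18 ± 0.03 SE, adjusted p = 4.38e-07 by edgeR), with 176, 168 and 169 CPM in Nuclear_Hom and 191, 190 and 197 CPM in Nuclear_Het, which did not overlap.

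Tnpo1, or transportin, which imports hnRNP proteins with a PY signal, had the largest contrast of this family. Nuclear_Hom had 102, 96.9 and 93.4 CPM, Nuclear_Het 96.6, 95.1 and 103 CPM and Nuclear_WT 130, 127 and 123 CPM. Total_Hom had 93.2, 91.0 and 91.2 CPM, Total_Het 135, 132 and 135 CPM and Total_WT 86.8, 87.4 and 84.6 CPM. Nuclear_WT and Total_Het lay above all other libraries. Tnpo1 was lower in nuclear Hom than in WT (log2 -0.37 ± 0.04 SE, adjusted p = 2.08e-15 by edgeR) and in nuclear Het than in WT (log2 -0.36 ± 0.04, adjusted p = 1.16e-14 by edgeR). In total RNA it was higher in Het than in WT (log2 0.64 ± 0.03, adjusted p = 1.60e-40 by edgeR) and lower in Hom than in Het (log2 -0.54 ± 0.03, adjusted p = 1.93e-34 by edgeR). Between nuclear Hom and Het it did not pass (log2 -0.02 ± 0.04, adjusted p = 0.761 by edgeR), and the libraries overlapped.

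Ipo4, an importer of histones and ribosomal proteins, had 58.6, 56.6 and 51.4 CPM in Nuclear_Hom, 56.2, 55.2 and 56.3 CPM in Nuclear_Het and 72.6, 68.3 and 65.6 CPM in Nuclear_WT. Total_Hom had 49.8, 53.1 and 49.6 CPM, Total_Het 73.6, 70.9 and 73.4 CPM and Total_WT 51.7, 52.2 and 49.1 CPM. Ipo4 was higher in total Het than in WT (log2 0.51 ± 0.04 SE, adjusted p = 1.58e-23 by edgeR), and Total_Hom and Total_WT overlapped. In GENCODE M21 55.3% of its exon bases are shared with Gm49378 on the same strand, so its counts are uncertain.

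Ipo7 was lower than WT in both nuclear mutants, with 92.6, 88.7 and 89.6 CPM in Nuclear_Hom, 83.4, 76.8 and 88.2 CPM in Nuclear_Het and 104, 104 and 109 CPM in Nuclear_WT. In total RNA it was lower in Hom than in WT and Het, with 74.0, 71.6 and 73.2 CPM in Total_Hom, 89.4, 92.7 and 92.2 CPM in Total_Het and 88.5, 90.8 and 89.3 CPM in Total_WT. The 3 Total_Hom libraries were the lowest of the 18. Ipo7 was higher in nuclear Hom than in Het (log2 0.12 ± 0.04 SE, adjusted p = 0.00922 by edgeR), a call lost with library totals alone (0.06) and without Nuclear_Het replicate 2 (0.07).

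Ipo8 and Ipo13 were lower in total Hom than in WT. Ipo8, which also loads Argonaute cargo, had 55.2, 55.0 and 53.9 CPM in Total_Hom, 73.4, 76.8 and 78.1 CPM in Total_Het and 71.9, 66.98 and 70.01 CPM in Total_WT (Hom against WT log2 -0.35 ± 0.04 SE, adjusted p = 3.96e-15 by edgeR). Ipo13, which works in both directions, had 36.4, 35.1 and 31.8 CPM in Total_Hom and 46.4, 41.1 and 47.4 CPM in Total_WT (log2 -0.39 ± 0.06, adjusted p = 1.41e-06 by edgeR). In both genes the Hom libraries lay below all WT libraries.

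Ipo9, an importer of histones and actin, stood at 71.1, 73.5 and 70.9 CPM in Total_Hom, 76.8, 77.7 and 73.9 CPM in Total_Het and 91.5, 91.9 and 89.6 CPM in Total_WT. It was lower in total Hom (log2 -0.34 ± 0.03 SE, adjusted p = 1.05e-18 by edgeR) and in total Het (log2 -0.26 ± 0.03, adjusted p = 4.60e-12 by edgeR), each set against WT. Its nuclear level was above WT in Hom, with 83.6 ± 3.35 CPM in Nuclear_Hom and 78.8 ± 4.17 CPM in Nuclear_WT (SD, n = 3), whose libraries overlapped. Ipo5, an importer of ribosomal proteins, was higher in total Hom than in Het (log2 0.20 ± 0.03, adjusted p = 3.47e-08 by edgeR), with 105, 110 and 105 CPM in Total_Hom and 92.1, 94.2 and 91.3 CPM in Total_Het. Ipo11 was lower in Hom than in Het in nuclear RNA (log2 -0.15 ± 0.05, adjusted p = 0.00891 by edgeR) and higher in total RNA (log2 0.12 ± 0.05, adjusted p = 0.0200 by edgeR), the nuclear call being lost without Nuclear_Het replicate 2 (-0.12) and the total call with DESeq2 and without Total_Het replicate 2 (0.12) or 3 (0.10). Tnpo2, a close relative of Tnpo1, was called only in nuclear Het against WT, and Tnpo3, an importer of SR splicing proteins, only in total Hom, where it was lower than in WT and in Het.

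**Figure D4:**
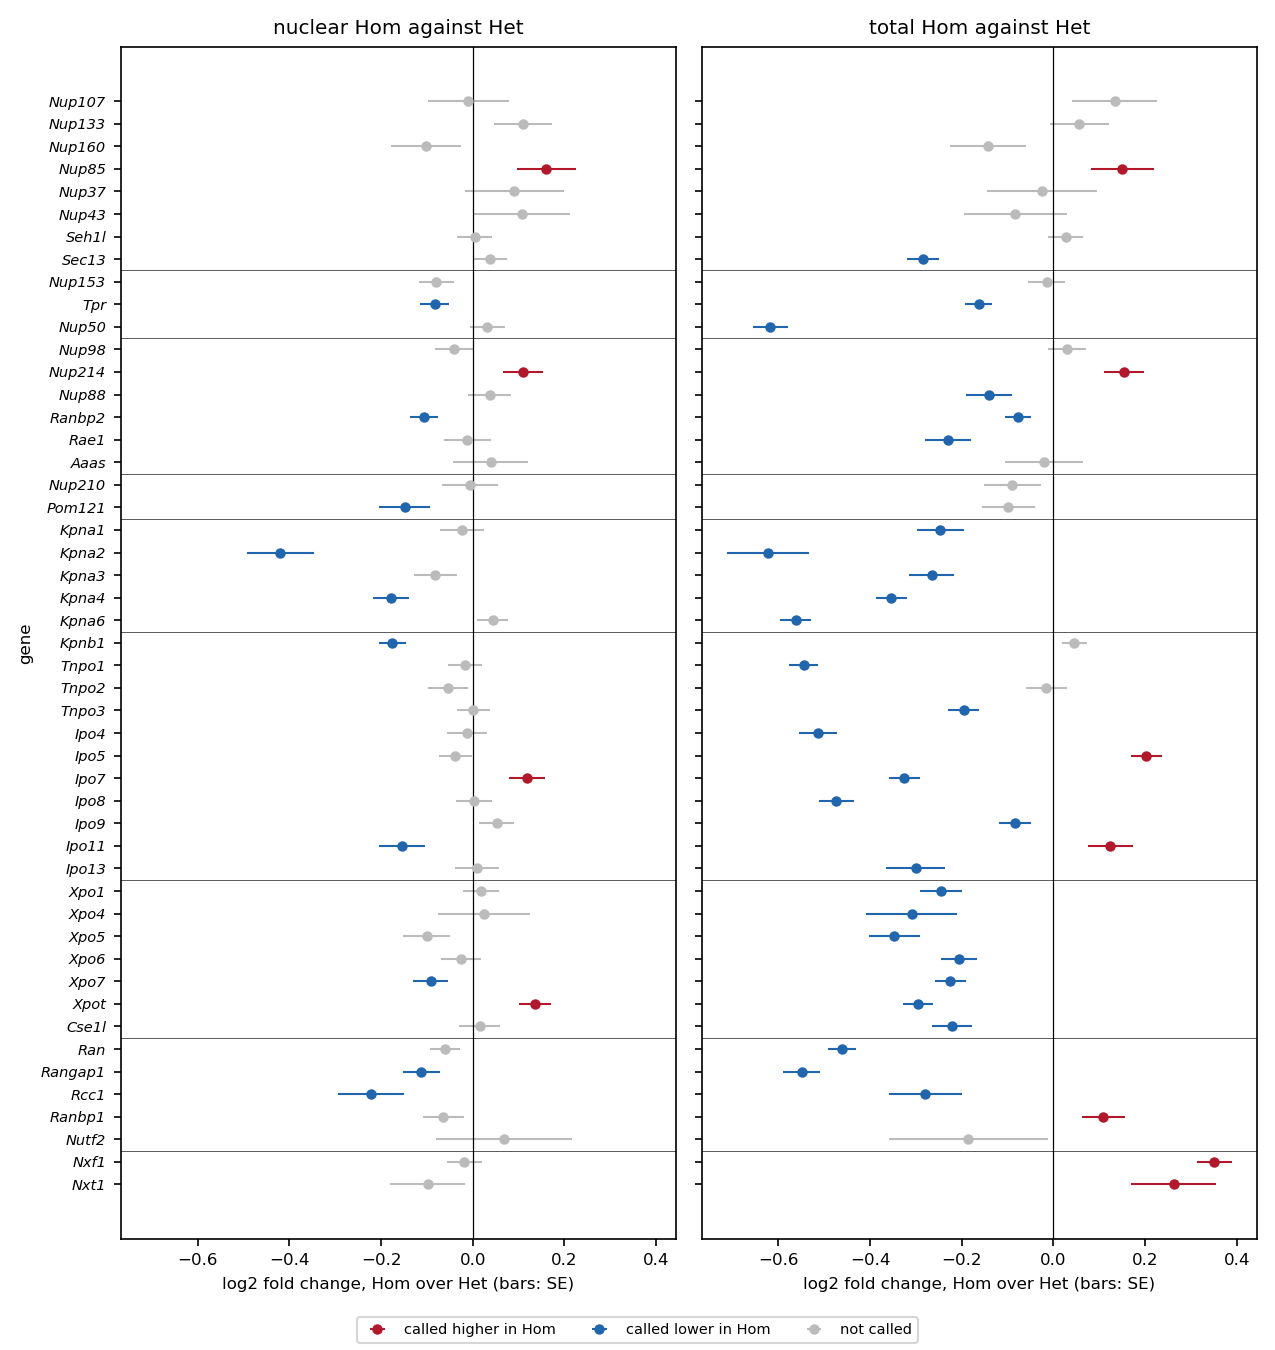
Log2 fold change of Hom over Het (points) with its SE (bars) for the 49 transcripts in nuclear RNA (left) and total RNA (right), with genes grouped by role from the Y complex at the top to mRNA export at the bottom. Blue and red mark genes that passed as lower and higher in Hom; in total RNA all 5 importin alpha and all 7 export receptor transcripts are blue.

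The 7 export receptors summed to 405 ± 6.89 CPM in Nuclear_Hom, 400 ± 4.78 CPM in Nuclear_Het and 459 ± 4.18 CPM in Nuclear_WT, and to 373 ± 6.01 CPM in Total_Hom, 446 ± 3.44 CPM in Total_Het and 385 ± 5.90 CPM in Total_WT (SD, n = 3). In nuclear RNA 6 of 7 were lower and 0 higher in Hom than in WT, and 6 of 7 lower and 0 higher in Het than in WT. Of all genes 27.8% and 31.7% were lower in these comparisons. In total RNA 5 of 7 were higher and 0 lower in Het than in WT, and all 7 were lower in Hom than in Het, with a median log2 fold change of -0.25. Of all genes 30.9% were higher in the former and 34.1% lower in the latter. Total Hom against WT was mixed, with 2 higher and 3 lower in both scalings, and so was nuclear Hom against Het, with 1 higher and 1 lower (0 and 2 with library totals alone). With library totals alone the nuclear Hom, nuclear Het, total Het against WT and total Hom against Het counts became 4 lower and 1 higher, 2 lower and 1 higher, 3 higher and 2 lower, and 2 lower and 0 higher, with Xpo1 turned in nuclear Hom, Xpo1, Xpo7 and Xpot in nuclear Het and Xpo7 in total Het. The matching shares of all genes under that scaling were 15.6% lower, 17% lower, 15.9% higher and 21.2% lower.

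Xpo4, an exporter of a few proteins such as Smad3 and an initiation factor, had 9.99, 7.98 and 7.69 CPM in Nuclear_Hom, 8.38, 8.44 and 8.36 CPM in Nuclear_Het and 12.4, 11.9 and 10.97 CPM in Nuclear_WT. Total_Hom had 8.27, 9.66 and 9.26 CPM, Total_Het 10.99, 10.9 and 11.9 CPM and Total_WT 7.50, 7.32 and 7.38 CPM. Total_WT was the lowest group, and both mutants lay above it in total RNA but below WT in nuclear RNA. Xpo4 was lower in nuclear Hom than in WT (log2 -0.45 ± 0.09 SE, adjusted p = 2.82e-05 by edgeR) and in nuclear Het than in WT (log2 -0.48 ± 0.10, adjusted p = 1.05e-05 by edgeR). It was higher in total Het than in WT (log2 0.60 ± 0.10, adjusted p = 9.79e-08 by edgeR) and in total Hom than in WT (log2 0.29 ± 0.10, adjusted p = 0.00996 by edgeR), the last call being lost without Total_Hom replicate 2 (0.25).

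Xpo6, the exporter of actin, behaved alike, with 57.1, 59.6 and 57.0 CPM in Total_Hom, 66.9, 66.4 and 67.4 CPM in Total_Het and 50.3, 50.3 and 49.5 CPM in Total_WT. These 3 groups did not overlap, and Hom was above WT (log2 0.21 ± 0.04 SE, adjusted p = 2.18e-06 by edgeR). Xpo1, or Crm1, the exporter of proteins with leucine-rich signals, had 49.1, 43.1 and 47.9 CPM in Total_Hom, 54.6, 54.4 and 57.1 CPM in Total_Het and 54.1, 60.2 and 56.7 CPM in Total_WT, and was lower in Hom than in both. Cse1l, which returns importin alpha to the cytoplasm, was lower in nuclear Het than in WT (log2 -0.31 ± 0.04, adjusted p = 9.92e-10 by edgeR), with 53.5, 48.3 and 53.2 CPM in Nuclear_Het and 66.2, 61.6 and 66.0 CPM in Nuclear_WT. Xpot, the exporter of tRNA, was higher in nuclear Hom than in Het (log2 0.14 ± 0.04, adjusted p = 8.25e-04 by edgeR), with 114, 114 and 111 CPM in Nuclear_Hom and 102, 99.0 and 105 CPM in Nuclear_Het, but the call was lost with library totals alone (0.08). In total RNA Xpot lay the other way, with 102, 104 and 109 CPM in Total_Hom and 132, 123 and 131 CPM in Total_Het.

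Of the 5 Ran cycle genes, 2 were lower and 1 higher in nuclear Hom than in WT, and 3 were lower and 1 higher in total Hom than in Het. Of all genes 27.8% were lower and 26.5% higher in the former, and 34.1% lower and 32.9% higher in the latter. Under library totals alone the Ran cycle counts became 1 lower and 1 higher, and 2 lower and 1 higher. Of all genes 15.6% were then lower and 44.1% higher, and 21.2% lower and 45.9% higher. Ran itself turned in nuclear Hom against WT and in total Het against WT. Ran had 124, 134 and 137 CPM in Nuclear_Hom and 138, 140 and 140 CPM in Nuclear_WT. In total RNA it had 107, 106 and 110 CPM in Total_Hom, 146, 149 and 151 CPM in Total_Het and 130, 136 and 134 CPM in Total_WT. The 3 total groups were fully separated, Hom lowest and Het highest.

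Rangap1, the GTPase activator that triggers hydrolysis by Ran at the cytoplasmic filaments, had 55.3, 56.1 and 53.7 CPM in Nuclear_Hom, 57.9, 58.6 and 61.3 CPM in Nuclear_Het and 79.6, 78.9 and 77.7 CPM in Nuclear_WT. Total_Hom had 46.9, 51.6 and 51.3 CPM, Total_Het 74.3, 71.5 and 73.5 CPM and Total_WT 51.4, 52.3 and 51.1 CPM. Nuclear_WT and Total_Het lay above all other libraries, while Total_Hom and Total_WT overlapped. Rangap1 was lower in nuclear Hom than in WT (log2 -0.51 ± 0.04 SE, adjusted p = 1.03e-20 by edgeR), lower in nuclear Het than in WT (log2 -0.40 ± 0.04, adjusted p = 1.57e-15 by edgeR) and higher in total Het than in WT (log2 0.50 ± 0.04, adjusted p = 4.17e-23 by edgeR). Between nuclear Hom and Het it was lower in Hom (log2 -0.11 ± 0.04, adjusted p = 0.0199 by edgeR), a call lost with DESeq2, without Nuclear_Het replicate 3 (-0.09) and without Nuclear_Hom replicate 3 (-0.10).

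Ranbp1, which helps Rangap1 act on Ran, went the other way from Rangap1 in each comparison with WT that it passed. It had 45.7, 47.9 and 47.7 CPM in Nuclear_Hom, 48.5, 49.7 and 48.9 CPM in Nuclear_Het and 44.0, 43.0 and 42.1 CPM in Nuclear_WT, with WT below both. In total RNA it had 45.7, 45.9 and 47.4 CPM in Total_Hom, 43.2, 43.6 and 42.1 CPM in Total_Het and 46.4, 48.3 and 45.7 CPM in Total_WT. Ranbp1 was higher in nuclear Hom than in WT (log2 0.13 ± 0.05 SE, adjusted p = 0.0104 by edgeR) and in nuclear Het than in WT (log2 0.20 ± 0.05, adjusted p = 1.14e-04 by edgeR). It was lower in total Het than in WT (log2 -0.12 ± 0.05, adjusted p = 0.0190 by edgeR), a call lost with DESeq2, without Total_WT replicate 2 (-0.10) and without Total_Het replicate 3 (-0.11). Of its exon bases 16.9% are shared with Gm49776 on the same strand in GENCODE M21.

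Rcc1, the nucleotide exchange factor that loads Ran with GTP on chromatin, averaged 18.9 ± 2.40 CPM in Nuclear_Hom, 22.0 ± 0.398 CPM in Nuclear_Het and 19.6 ± 1.79 CPM in Nuclear_WT (SD, n = 3), and was higher in nuclear Het than in WT and lower in Hom than in Het. Nutf2 had 3.91, 2.76 and 2.13 CPM in Total_Hom, 3.57, 3.12 and 3.30 CPM in Total_Het and 4.78, 4.36 and 4.18 CPM in Total_WT. It was lower in total Hom than in WT (log2 -0.60 ± 0.16 SE, adjusted p = 6.09e-04 by edgeR) and in total Het than in WT (log2 -0.41 ± 0.16, adjusted p = 0.0203 by edgeR), the Het call being lost with DESeq2, without Total_WT replicate 1 (-0.36) and without Total_Het replicate 2 (-0.37) or 3 (-0.40). Its Total_Hom libraries had a coefficient of variation of 30.8%, the highest of any of the 49 genes in that group.

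Nxf1 and Nxt1, the mRNA export pair, were both higher in total Hom than in Het. There 28 of the 49 genes were lower and 7 higher under TMM scaling, and 14 lower and 14 higher with library totals alone. Nxf1, the export receptor, had 74.5, 72.7 and 76.2 CPM in Total_Hom, 57.7, 60.5 and 57.0 CPM in Total_Het and 63.3, 64.5 and 60.7 CPM in Total_WT. The 3 total groups did not overlap, with Hom highest. Nxf1 was higher in total Hom than in WT (log2 0.25 ± 0.04 SE, adjusted p = 2.20e-09 by edgeR) and than in Het (log2 0.35 ± 0.04, adjusted p = 3.48e-15 by edgeR), and in nuclear RNA it passed in none (0) of the 3 comparisons.

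Nxt1, the cofactor of Nxf1, had 12.8, 13.6 and 13.9 CPM in Nuclear_Hom, 15.8, 12.7 and 14.3 CPM in Nuclear_Het and 9.77, 10.4 and 10.8 CPM in Nuclear_WT. Both mutant groups lay above every WT library. Nxt1 was higher in nuclear Hom than in WT (log2 0.39 ± 0.09 SE, adjusted p = 9.46e-05 by edgeR) and in nuclear Het than in WT (log2 0.49 ± 0.09, adjusted p = 9.25e-07 by edgeR). Total_Hom had 11.7, 13.3 and 13.6 CPM, Total_Het 9.75, 11.7 and 10.8 CPM and Total_WT 10.8, 12.5 and 11.7 CPM, where Nxt1 was called higher in Hom than in Het.

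Direction was compared between the fractions next, with each comparison using its own libraries. Of the 49 genes 11 (22.4%) were lower in Hom than in WT in both fractions, against 10.5% of the 14858 genes tested in both, and 0 were higher in both, against 8.4%. In 6 (12.2%) the level was lower in nuclear but higher in total RNA, against 9.77%, and in 1 (2.04%) the reverse, against 8.8%. For Het against WT 15 (30.6%) were lower in nuclear and higher in total RNA, against 21.7%, and 3 (6.12%) the reverse, against 17.8%. For the same pair 0 were lower in both, against 3.43%, and 1 (2.04%) was higher in both, against 2.9%. For Hom against Het 7 (14.3%) were lower in both, against 4.33%, and 2 (4.08%) were higher in both, against 5.05%. A further 2 (4.08%) were higher in nuclear and lower in total RNA, against 12.5%, and 1 (2.04%) the reverse, against 10.5%. These are the counts under TMM scaling.

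Under library totals alone several of these counts differed. Lower in Hom than in WT in both fractions were then 5 (10.2%), Cse1l, Ipo7, Kpna2, Kpna6 and Pom121, against 5.77% of all genes, and 1 (2.04%), Nxf1, was higher in both, against 12%. In 3 the level was lower in nuclear and higher in total RNA (6.12%, against 5.38%), and in 2 the reverse (4.08%, against 14.5%). For Het against WT the larger count changed sides: 16 (32.7%) were higher in nuclear and lower in total RNA, against 36.4%, and 5 (10.2%) the reverse, against 10.5%. Those 5 were Ipo4, Kpna4, Rangap1, Tnpo1 and Xpo4. Lower in both were 2 (4.08%, against 2.45%), and 0 were higher in both, against 2.07%. For Hom against Het 5 (10.2%) were lower in both, against 3.76%, and 0 were higher in both, against 4.6%. The remaining calls of that pair were 7 (14.3%) lower in nuclear and higher in total RNA, against 17.5%, and 0 the reverse, against 7.05%.

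**Figure D5:**
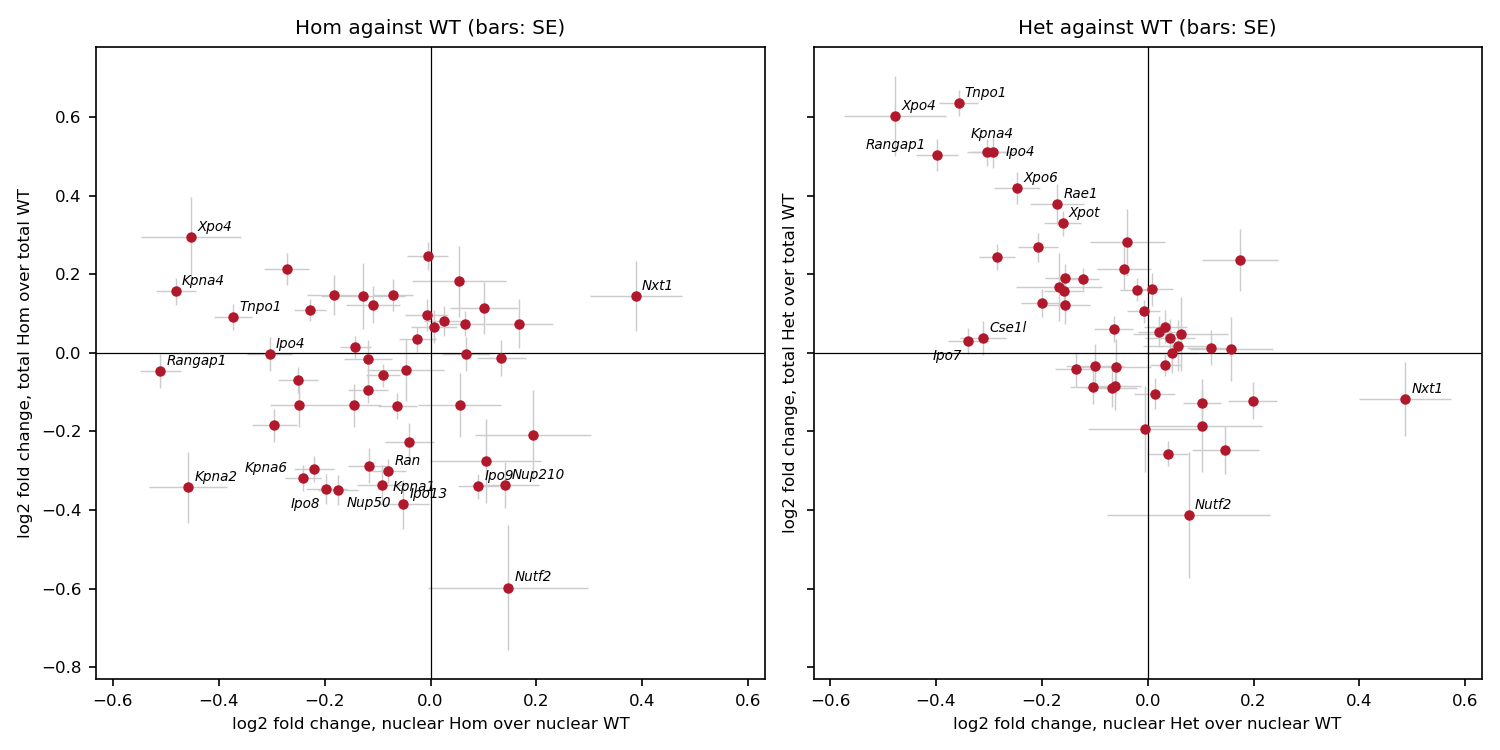
Log2 fold change in nuclear RNA (x axis) against that in total RNA (y axis) for the 49 transcripts (points) with their SE (bars), Hom over WT on the left and Het over WT on the right. Kpna2, Kpna6, Nup50 and Ipo8 lie in the lower left on the left side, and Tnpo1, Xpo4, Rangap1, Kpna4 and Ipo4 lie in the upper left on the right side.

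The average over both fractions gives each genotype 1 value in which Xist status is balanced between Hom and WT. Hom against WT averaged this way gave 30 calls, 5 higher and 25 lower, where 58.6% of all genes passed (28% higher and 30.6% lower), and 12 higher and 19 lower with library totals alone (35.1% and 21.9% of all genes). All 5 importin alpha transcripts were lower in Hom in both scalings, led by Kpna2 (log2 -0.40 ± 0.06 SE, adjusted p = 5.16e-10 by edgeR) and Kpna6 (log2 -0.28 ± 0.02, adjusted p = 8.55e-22 by edgeR). Rangap1 (log2 -0.28 ± 0.03), Ipo8 (log2 -0.28 ± 0.03) and Nup50 (log2 -0.27 ± 0.03) were lower as well. Nxt1 (log2 0.26 ± 0.06, adjusted p = 1.40e-04 by edgeR) and Nxf1 (log2 0.12 ± 0.03) were higher. Ipo5 (log2 0.07 ± 0.02), Nup133 (log2 0.12 ± 0.04) and Nup85 (log2 0.10 ± 0.05) were also called higher, but each call was lost when any of several single libraries was left out. Since the 2 fractions differ in sign for many genes, an average near 0 does not mean that a gene was alike in both. Cell type markers were not balanced in this average. Of the 7 proximal tubule markers 6 were lower and 1 higher in Hom (median log2 -0.27). Of the 7 immune markers 5 were higher and 1 lower (median log2 0.20). Kap averaged 14590 and 5388 CPM in Nuclear_WT and Total_WT, and 1951 and 1829 CPM in Nuclear_Hom and Total_Hom. The part of these shifts in the result was not tested.

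In the same average Het against WT gave 16 calls, 10 higher and 6 lower, where 43.1% of all genes passed (22.3% higher and 20.9% lower), and 10 higher and 5 lower with library totals alone (21% and 19.1%). Rcc1 was the highest (log2 0.20 ± 0.05 SE, adjusted p = 7.94e-04 by edgeR), followed by Nxt1 (log2 0.18 ± 0.06) and Tnpo1 (log2 0.14 ± 0.02). Ipo7 (log2 -0.16 ± 0.03, adjusted p = 5.21e-08 by edgeR), Cse1l (log2 -0.14 ± 0.03) and Ipo9 (log2 -0.11 ± 0.03) were lower, as were Nup214 (log2 -0.10 ± 0.03) and Xpo1 (log2 -0.09 ± 0.03). Of the 8 Y complex transcripts 0 passed by edgeR. With Total_WT replicate 1 as deposited the count of calls was 3 in place of 16. In this average 6 of the 7 immune markers were higher in Het and 0 lower (median log2 1.07). All 7 endothelial markers were lower (median log2 -0.15), and the part of these shifts was not tested.

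The nuclear-to-total ratio compares a genotype difference in nuclear RNA with the same difference in total RNA. Malat1 and Neat1 summed to 2324 CPM in Nuclear_WT and 2947 CPM in Total_WT, and to 2716 and 2747 CPM in Nuclear_Hom and Total_Hom. In Het the order was the other way, with 3014 CPM in Nuclear_Het and 2549 CPM in Total_Het. The ratio was therefore not read as the share of a transcript in the nucleus. Hom against WT gave 27 calls, 13 higher and 14 lower, where 56.1% of all genes passed (28.4% higher and 27.7% lower), and Het against WT 31 calls, 7 higher and 24 lower, where 70.7% passed (37.8% higher and 32.9% lower). Under library totals alone these were 21 higher and 8 lower in Hom (40.5% and 17% of all genes) and 29 higher and 9 lower in Het (61.4% and 16.7%), with Sec13, Nup153, Tpr, Nup88, Ranbp2, Aaas, Kpna2, Tnpo3, Ipo8, Xpo5, Xpo7, Cse1l and Ran turned in Het and 0 genes in Hom. The largest decreases in Hom were those of Xpo4 (log2 -0.74 ± 0.14 SE, adjusted p = 2.37e-06 by edgeR), Kpna4 (log2 -0.63 ± 0.05, adjusted p = 1.97e-23 by edgeR), Xpo6 (log2 -0.48 ± 0.06), Tnpo1 (log2 -0.46 ± 0.05) and Rangap1 (log2 -0.46 ± 0.06). Nutf2 (log2 0.75 ± 0.22, adjusted p = 0.00249 by edgeR), Nup210 (log2 0.48 ± 0.09) and Ipo9 (log2 0.43 ± 0.05) increased. In Het the decreases of Xpo4 (log2 -1.08 ± 0.14), Tnpo1 (log2 -0.99 ± 0.05), Rangap1 (log2 -0.90 ± 0.06), Kpna4 (log2 -0.81 ± 0.05) and Ipo4 (log2 -0.80 ± 0.06) were the largest, and Nxt1 increased (log2 0.60 ± 0.13, adjusted p = 1.60e-05 by edgeR). The nuclear and total libraries of WT differed in Xist status, as did those of Hom and of Het, so the ratio cannot be told apart from sex. Between Hom and Het, which are alike in Xist status within each fraction, the ratio differed for 30 genes, 24 higher and 6 lower in Hom, where 63.6% of all genes passed (31.7% higher and 31.9% lower). With library totals alone that split was 9 higher and 15 lower (19.2% and 46.7% of all genes). Here too the fractions differed in Xist status, so an effect of fraction cannot be told apart from sex.

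Nuclear against total RNA, averaged over WT and Hom so that Xist status is balanced, gave 32 calls, 30 higher and 2 lower in nuclear RNA, where 63.8% of all genes passed (33.2% higher and 30.6% lower). With library totals alone 18 were higher and 12 lower (20.9% and 41.8% of all genes), and Sec13, Tpr and Ranbp2 turned their direction. All 5 importin alpha and all 7 export receptor transcripts were higher in nuclear RNA, of which 5 and 4 were still called with library totals alone. Kpna2 (log2 0.48 ± 0.06 SE, adjusted p = 3.36e-13 by edgeR), Nup50 (log2 0.43 ± 0.03, adjusted p = 1.29e-31 by edgeR), Xpo1 (log2 0.37 ± 0.03), Rangap1 (log2 0.37 ± 0.03) and Kpna6 (log2 0.35 ± 0.02) led, and Nup210 (log2 -0.17 ± 0.04) and Ipo11 (log2 -0.11 ± 0.03) were the 2 lower genes. The 7 proximal tubule markers were also all higher in nuclear RNA in this comparison (median log2 0.69), while 6 of the 7 immune markers (median log2 -1.27) and all 7 endothelial markers (median log2 -0.62) were lower, and their part in this result was not tested.

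A pattern seen across the groups was counted in TMM-scaled CPM, after the values were known. The TMM factors were lowest in 2 groups, at 0.929 to 0.934 in Nuclear_WT and 0.922 to 0.926 in Total_Het. They were 0.974 to 1.076 in the other libraries, and a lower factor raises CPM. In 13 of the 49 genes (26.5%) all 6 Nuclear_WT and Total_Het libraries lay above the other 12, against 12.6% of the 15410 genes: Ipo4, Ipo8, Kpna4, Kpna6, Nup50, Rae1, Ranbp2, Rangap1, Sec13, Tnpo1, Xpo4, Xpo6 and Xpo7. Ranbp1 was the only 1 of the 49 (2.04%) with these 6 libraries below the others, against 5.92%. The same 2 groups had the highest proximal tubule sums, 43370 to 44440 CPM in Nuclear_WT and 49420 to 50540 CPM in Total_Het, against 26730 to 29420 CPM in the other 4 groups. Without Kap the proximal tubule sums were 29330 to 29360 CPM in Nuclear_WT, 26750 to 27140 CPM in Total_Het and 23480 to 26460 CPM in the other 4. Podocyte markers were lowest in the same groups, at 317 to 333 CPM in Nuclear_WT and 255 to 259 CPM in Total_Het, against 349 to 471 CPM in the others. Total_Hom shares the Y-linked signal with these 2 groups but not the high levels. The pattern was not counted with library totals alone. In total Het against WT that scaling left Nup50 (log2 0.09), Kpna6 (0.06), Sec13 (0.01), Ranbp2 (0.01), Xpo7 (-0.02) and Ipo8 (-0.05) without a call. Ipo4, Kpna4, Rae1, Rangap1, Tnpo1, Xpo4 and Xpo6 were still called higher there. The part of tubule content and sex in the pattern was not tested.

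Comparisons within 1 Xist status touch these markers too. In nuclear Hom against Het 6 of 7 proximal tubule markers were higher (median log2 0.34) and 6 of 7 immune markers lower (median log2 -1.73). In total Hom against Het 6 of 7 proximal tubule markers were lower (median log2 -0.78), 7 of 8 podocyte markers higher (median log2 0.94) and 6 of 7 endothelial markers higher (median log2 0.48). The part of these shifts in the results for importin alpha and the export receptors was not tested.

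Other pore and transport genes, which include the inner ring and further receptors, were counted beside the 49. Of 43 such rows 40 were tested, and 2 were higher and 8 lower in nuclear Hom than in WT, with a median log2 fold change of -0.04. These are 25% of the 40, below the 54.3% of all genes (26.5% higher and 27.8% lower). Total Hom against Het gave 6 higher and 15 lower, with a median of -0.09, or 15% and 37.5% of the 40, beside 32.9% and 34.1% of all genes. Hikeshi, the importer of Hsp70 chaperones, was lower in total Hom than in WT (log2 -0.45 ± 0.06 SE, adjusted p = 2.60e-11 by edgeR), as were the inner ring nucleoporin Nup35 (log2 -0.52 ± 0.11, adjusted p = 8.50e-06 by edgeR) and, with a wide SE, Nup210l (log2 -1.07 ± 0.46, adjusted p = 0.0379 by edgeR). Ddx39b (log2 0.27 ± 0.03, adjusted p = 1.68e-12 by edgeR) and Ddx19a (log2 0.25 ± 0.05, adjusted p = 3.79e-06 by edgeR), helicases of mRNA export, were higher there. Senp1 was higher as well (log2 0.25 ± 0.06, adjusted p = 2.38e-04 by edgeR). Other mRNA export genes of this list went both ways, with Alyref higher (log2 0.18 ± 0.06) and Nxt2 (log2 -0.20 ± 0.04) and Thoc7 (log2 -0.13 ± 0.03) lower. In total Hom against WT 5 of the 40 were higher and 10 lower (12.5% and 25%), beside 30.6% and 31% of all genes.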

How the data were processed

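Nuclear RNA (9 libraries) and total RNA (9 libraries) were sequenced; per the labels' protocols, extraction used TRIzol and library preparation the KAPA Stranded mRNA-Seq kit. The authors deposited 1 table of raw read counts per gene, with a gene length in bases; CASAVA, STAR 2.5.2b, featureCounts, DESeq2 and the build mm9 are named in the submitters' processing notes, and the strand setting of the counting is not given in the sources used here. The deposited column of Total_WT replicate 1 held 200140709 counts, 10.2 times the mean of the other 17, and 0 genes in it had fewer counts than the 9 nuclear columns together, so their sum was subtracted, which left 19034520 counts; the column as deposited was an alternative. Libraries then held 17405493 to 23462056 counts, and 4177 of the 24602 genes had no counts. The spread between libraries beyond counting error (biological coefficient of variation) was 3.06% in nuclear libraries, 3.90% in total libraries and 3.54% over all 18.

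Genes were tested with edgeR 4.0.16 (limma 3.58.1, R 4.3.3): filterByExpr, TMM factors, a robust quasi-likelihood fit and Benjamini-Hochberg adjustment over all genes tested, called at 0.05. One fit of 9 libraries per fraction gave the genotype comparisons (15112 nuclear and 15051 total genes), and 1 fit of 18 libraries (15410 genes) gave the averages, the nuclear-to-total ratio and nuclear against total. SE is the log2 fold change divided by the square root of F. CPM used TMM over the 18 libraries. The test was tried on simulated counts. Other settings tried were leaving out each library, the replicate block, removal of Rn45s, DESeq2 1.42.0, scaling by RLE or by totals, and testing without the count filter or above a mean of 5 CPM. Tests were named for up to 5 called genes per direction by size of change, without overlap of libraries in comparisons of 2 groups; genes shown for their role were added after their values were seen. The members and lists were chosen with earlier results of these data known. Promoters were RefSeq sequences and overlaps came from GENCODE M21.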

Additional observations from a re-analysis of the deposited data

Results flagged for a closer look

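For the genes named next the effect of genotype differed between nuclear and total RNA, by an interaction test across all genes (edgeR, adjusted p under 0.05), or for Hom against Het by such a test added after seeing the data. Relative to WT, the nuclear-to-total ratio in Hom was higher for Nutf2 (log2 0.75), Nup210 (log2 0.48), Ipo9 (log2 0.43), Nup37 (log2 0.41) and Nup43 (log2 0.38). It was lower for Xpo4 (log2 -0.74), Kpna4 (log2 -0.63), Xpo6 (log2 -0.48), Tnpo1 (log2 -0.46) and Rangap1 (log2 -0.46). In Het it was higher than in WT for Nxt1 (log2 0.60), Nutf2 (log2 0.49), Nup210 (log2 0.39), Ranbp1 (log2 0.32) and Ipo9 (log2 0.29), and lower for Xpo4 (log2 -1.08), Tnpo1 (log2 -0.99), Rangap1 (log2 -0.90), Kpna4 (log2 -0.81) and Ipo4 (log2 -0.80). Between Hom and Het the ratio differed for 30 of the 49 genes (24 higher and 6 lower in Hom), where 63.6% of all genes passed (31.7% higher and 31.9% lower). With library totals alone this split was 9 higher and 15 lower (19.2% and 46.7% of all genes). The changes of largest size were those of Nup50 (log2 0.66, edgeR adjusted p = 3.94e-22) and Kpna6 (log2 0.61, edgeR adjusted p = 4.36e-24), and among the lower ones Nxf1 (log2 -0.36, edgeR adjusted p = 1.14e-09). The 3 genes called in opposite directions in the 2 fractions were Ipo7 (log2 0.45 ± 0.05 SE, edgeR adjusted p = 3.07e-14), Xpot (log2 0.44 ± 0.05, edgeR adjusted p = 1.41e-15) and Ipo11 (log2 -0.27 ± 0.07, edgeR adjusted p = 3.35e-04). With library totals alone the nuclear calls of Ipo7 (log2 0.06, edgeR adjusted p = 0.198) and Xpot (log2 0.08, edgeR adjusted p = 0.0571) were lost. Ipo11 kept opposite calls under that scaling. Hom and Het are alike in Xist status within each fraction, whereas WT has the opposite order. The nuclear libraries of Hom and Het were high in Xist, and their total libraries held the Y-linked signal. Fraction and sex therefore cannot be told apart in the ratio of Hom against Het either.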

How the results depend on the processing

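For the 103 tests of single genes that were named by rule, 2215 values under the alternatives kept their direction and side of the threshold, 118 kept the direction but lost significance, and 0 reversed. Called genes outside those tests did turn with library totals alone: 5 in nuclear Hom against WT, 8 in nuclear Het against WT, 6 in total Het against WT, 3 in total Hom against Het, 13 in the nuclear-to-total ratio of Het and 3 in nuclear against total. The number of genes called in nuclear Hom against Het, 14, was 8 with DESeq2, and 9 both without Nuclear_Het replicate 3 and without Nuclear_Hom replicate 3; the cause was not tested. The 16 calls of Het against WT averaged over fractions became 3 with Total_WT replicate 1 as deposited, a column that holds the nuclear counts as well. That column also ended the calls of Kpna4 (log2 0.07), Rae1 (log2 0.09) and Xpo4 (log2 0.15) in total Hom against WT and of Nup210 (log2 -0.13) and Nutf2 (log2 -0.33) in total Het against WT. Leaving out 1 library gave 23 to 28 calls in nuclear Hom against WT, 21 to 25 in nuclear Het against WT, 9 to 14 in nuclear Hom against Het, 26 to 31 in total Hom against WT, 23 to 28 in total Het against WT and 30 to 35 in total Hom against Het. With the replicate block the same counts were 28, 25, 14, 30, 27 and 35; same-numbered libraries deviated together in 0 of 45 pairs (correlations from -0.0446 to 0.0444), so the numbers were not taken to pair the libraries.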
